A study of Mus musculus with 5 samples.

Results

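Dermal macrophages and dendritic cells are the resident phagocytes and antigen-presenting cells of the skin. Resident macrophages are maintained by signalling through the colony-stimulating factor 1 receptor, take up debris and glycoproteins through scavenger and C-type lectin receptors, and secrete complement C1q and chemokines. Dendritic cells of the skin share part of this receptor set and carry antigen to the draining lymph nodes. The genes described here are 40 listed symbols of such cells, of which 39 were rows of a count table of 24084 genes, and the remaining one, Adgre1 (the F4/80 antigen), was present under its older symbol Emr1 and is given apart. The members were chosen by how their measured levels differed between skin and lymph node libraries in these same data, so every skin against lymph node value of a member below is a description, and so is any count of members that edgeR called.

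The samples were RNA-seq libraries of sorted regulatory T cells (Tregs), the Foxp3-expressing T cells that restrain immune responses, from mice aged 13 days. There were 2 libraries of skin Tregs and 3 of Tregs from lymph nodes that drain the skin. All 5 came from the Foxp3-DTR strain, in which Foxp3 expression comes with that of a diphtheria toxin receptor and a green fluorescent protein; no treatment is named in the labels. The labels used here name neither a sort gate nor how many animals went into a library, and nothing says that libraries came from separate animals, so a p-value here reflects only how far these libraries vary, and that variation may be technical.

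Counts in genes totalled 10787378 and 10468795 in the skin libraries, against 12305644 to 14595018 in the lymph node libraries. Genes detected numbered 9894 and 9192 in skin, against 12173 to 12540 in lymph node. The labelled cell type was checked first. Foxp3 was at 77.6 and 117 CPM (counts per 1000000 gene counts, TMM-scaled) in skin Tregs and at 89.5, 94.9 and 99.7 CPM in lymph node Tregs, with overlapping groups. Cd4 was at 449 and 436 CPM in skin and at 477, 511 and 803 CPM in lymph node. Cd3e, a chain of the T cell receptor complex, was at 1054.5 and 1228 CPM in skin Tregs, below all lymph node values of 2002, 1800.1 and 2289 CPM (edgeR log2 fold change -0.83, SE 0.19, adjusted p = 0.0545). All 14 genes of a T cell list summed to 1.15 and 1.22% of gene counts in skin, against 1.78, 1.59 and 1.72% in lymph node.

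The 39 members summed to 0.319 and 0.476% of gene counts in the skin libraries and to 0.0243, 0.0218 and 0.0207% in the lymph node libraries. This was a share of 0.397 ± 0.111% in skin (SD, n = 2) and 0.0223 ± 0.00183% in lymph node (SD, n = 3), a ratio of 17.9. Per 100 counts of the T cell list the members had 27.8 and 39.04 counts in skin and 1.36, 1.38 and 1.20 counts in lymph node, a ratio of 25.4. In bulk libraries of this kind more cells of a type and more RNA per cell cannot be told apart, and whether the counts came from other cells in the sort or from Tregs was not tested. Lyz2, F13a1 and C1qb held the largest parts of the members' skin counts, at 10.1, 9.65 and 9.45%, and without these 3 the ratio of the sums was 14.6. Cd86, which was lower in skin, alone held 77.7% of the members' lymph node counts and 1.58% of their skin counts. The lymph node sums, and so these ratios, rest largely on that gene.

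Of the 39 members, 17 had counts in skin and none in any lymph node library, 2 had no count anywhere, and 31 had counts in both skin libraries. The 17 without lymph node counts are given as lower bounds against the limit that a count of 0 allows, 3 counts over the 3 lymph node libraries or 0.0719 CPM; these bounds ran from 152-fold to 2657-fold. For 30 of the 39 members both skin libraries exceeded all lymph node libraries, for 2 they were below and 7 overlapped. Among all 11437 genes that passed the filter on low counts the shares were 16.7% above and 33.6% below. The member counts include 8 members that did not pass this filter, so the 2 sets are not alike. The filter was passed by 31 members, of which edgeR called 18 higher in skin at an adjusted p under 0.05, where the background over all genes tested was 2.4% higher and 5.3% lower, or 7.7% in either direction. Members without lymph node counts passed the filter only through skin, and the choice of members used this contrast, so nothing is read from these counts.

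**Figure D1:**
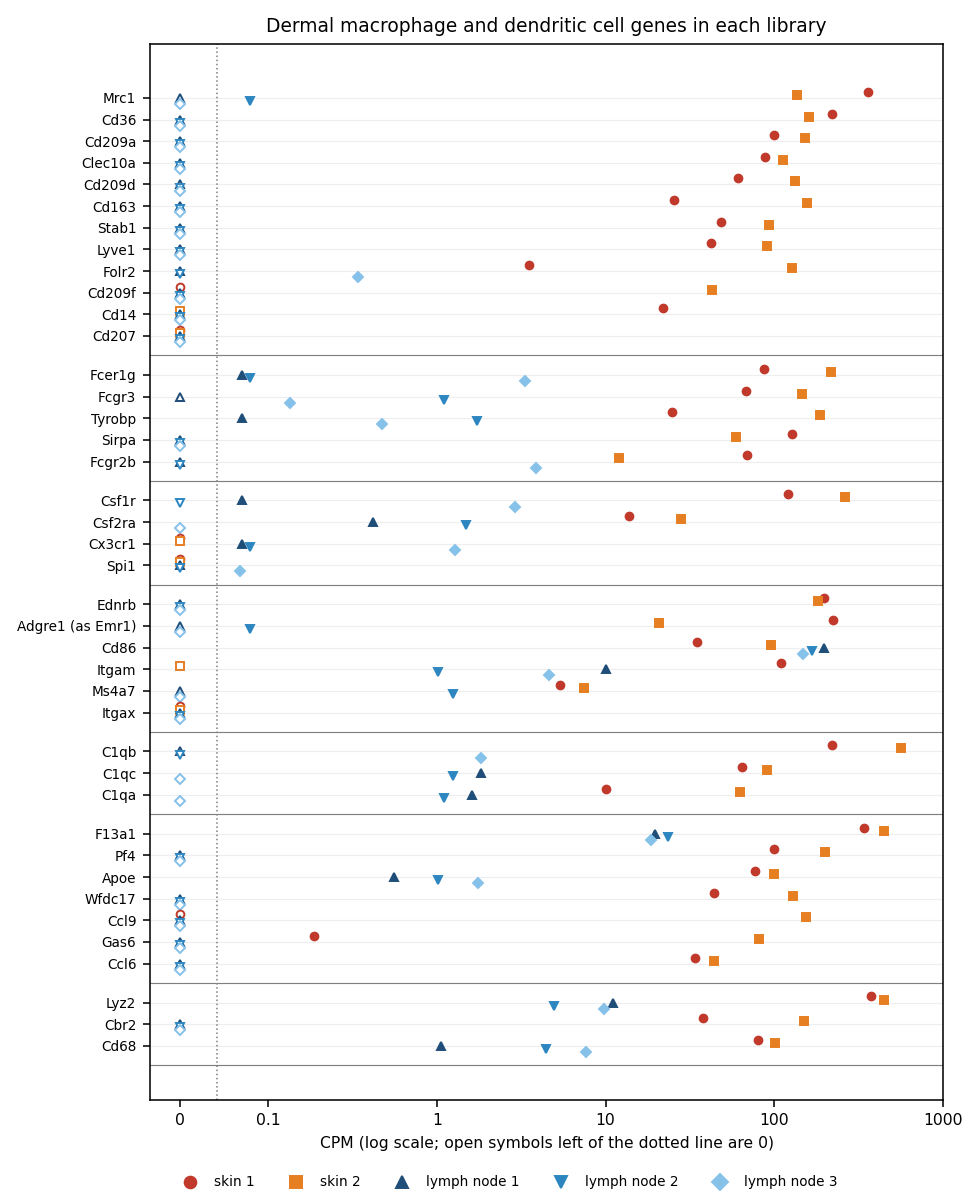
CPM of each listed gene in the 5 libraries, on a log axis with values of 0 drawn as open symbols left of the dotted line, in blocks by role. Both skin libraries lie right of all lymph node libraries for 30 of the 39 members, and Cd86 is the member of higher level that lies the other way.

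Lectin and scavenger receptors made up the largest block, 12 genes that bind glycans, lipids, modified proteins or microbial products at the surface of phagocytes. Of these, 10 had no count in lymph node and 9 had both skin libraries above all lymph node libraries. Mrc1 (chromosome 2, 14229392 to 14332057, mm10), the macrophage mannose receptor, had 3864 and 1377 counts in skin, or 360.1 and 137 CPM, and 1 count in lymph node library 2. That is a ratio of 10527, with an exact 95% counting interval of 1889 to 415885. Cd36, a scavenger receptor for lipids, was at 221 and 161 CPM in skin and had no count in lymph node, at least 2657-fold higher. Clec10a, a galactose-type lectin of macrophages and dendritic cells, was at 88.3 and 113 CPM in skin with no count in lymph node, at least 1402-fold higher.

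Cd163, the scavenger receptor for haemoglobin bound to haptoglobin, had 25.3 and 156 CPM in skin and no count in lymph node. Stab1 and Lyve1, receptors for modified lipoproteins and for hyaluronan, had 48.0 and 92.6 CPM and 41.8 and 90.0 CPM in the skin libraries. Neither had a count in lymph node, and in both genes the second skin library was the higher one. Folr2, the folate receptor beta of resident macrophages, had 3.54 and 128 CPM in skin and 5 counts in lymph node, all in library 3. Cd14, a co-receptor for bacterial lipopolysaccharide, had 21.8 CPM in skin library 1 and no count in the other 4 libraries. Cd207 (langerin), which marks epidermal Langerhans cells and a subset of dermal dendritic cells, had no count in any of the 5 libraries.

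The Cd209 genes encode lectins related to human DC-SIGN and lie in a row on mouse chromosome 8. Cd209a (3743397 to 3748984) was at 99.9 and 152 CPM and Cd209d (3871824 to 3878555) at 61.2 and 132 CPM in the skin libraries. Cd209f (4102787 to 4105835) was counted in skin library 2 alone, at 42.8 CPM. None of the 3 had a count in lymph node, so that Cd209a and Cd209d were at least 1753-fold and 1342-fold higher in skin. Reads that aligned to more than 1 place were not assigned to genes, so the levels of such close relatives are uncertain.

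Upstream sequence is shown for Mrc1, for 2 neighbours of the Cd209 row and for C1qb, the most abundant member per length, since these genes carry the pattern of high skin counts with at most 27 counts in lymph node. Each is the 250 bases before a RefSeq start site (GRCm38.p6, the assembly of mm10), written 5′ to 3′ on the gene's own strand, with matches to GAGGAA (the purine-rich box bound by PU.1, the product of Spi1) and to TATAAA in capitals, on either strand (TTCCTC and TTTATA). RefSeq start sites can differ from the GENCODE gene bounds given above. They are Mrc1 at chr2:14229164-14229413 on the plus strand, and Cd209a at chr8:3748985-3749234, Cd209d at chr8:3878500-3878749 and C1qb at chr4:136886201-136886450 on the minus strand.
Mrc1: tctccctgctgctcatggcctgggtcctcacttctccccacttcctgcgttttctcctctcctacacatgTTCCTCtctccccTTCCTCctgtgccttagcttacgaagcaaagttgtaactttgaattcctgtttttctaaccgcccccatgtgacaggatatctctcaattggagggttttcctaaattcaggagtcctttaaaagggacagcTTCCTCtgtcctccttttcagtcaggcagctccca
Cd209a: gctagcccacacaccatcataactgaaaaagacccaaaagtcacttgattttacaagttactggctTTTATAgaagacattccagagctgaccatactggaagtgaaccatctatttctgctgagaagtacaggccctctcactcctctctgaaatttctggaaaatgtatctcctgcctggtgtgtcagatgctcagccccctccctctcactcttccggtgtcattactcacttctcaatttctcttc
Cd209d: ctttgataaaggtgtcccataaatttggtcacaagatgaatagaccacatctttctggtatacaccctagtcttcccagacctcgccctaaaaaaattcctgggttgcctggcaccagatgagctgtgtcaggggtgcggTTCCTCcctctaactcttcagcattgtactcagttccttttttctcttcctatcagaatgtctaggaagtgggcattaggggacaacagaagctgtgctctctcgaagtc
C1qb: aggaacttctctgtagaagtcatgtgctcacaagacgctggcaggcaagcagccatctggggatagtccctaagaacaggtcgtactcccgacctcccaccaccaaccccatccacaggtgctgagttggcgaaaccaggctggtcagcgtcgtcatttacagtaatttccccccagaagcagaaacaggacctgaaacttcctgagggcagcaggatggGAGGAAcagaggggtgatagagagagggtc
Mrc1 held 3 matches to GAGGAA, all on the opposite strand, beginning at positions -180, -167 and -35 from the start site. C1qb held 1 at position -30 and Cd209d 1 at position -110, while Cd209a held 1 match to TATAAA at position -184 and none to GAGGAA. Promoter windows were found for 30 of the members, and 15 of these genes had a GAGGAA match in at least 1 window, against 25.9% of all 27025 genes in the RefSeq table. A TATAAA match was found for 4 of the 30 and for 14.3% of all genes. These are matches of letters and not measured binding.

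Fc receptors, their signalling adaptors and an inhibitory receptor followed, 5 genes whose skin values all exceeded all lymph node values. Fcer1g, the common gamma chain through which activating Fc receptors signal, had 87.2 and 216 CPM in skin, against 0.0702, 0.0783 and 3.33 CPM in lymph node. Tyrobp (DAP12), the adaptor of several myeloid receptors, had 24.8 and 186 CPM in skin and 0.0702, 1.72 and 0.475 CPM in lymph node. Fcgr3, an activating receptor for immunoglobulin G, had 68.1 and 145 CPM in skin and 0, 1.10 and 0.136 CPM in lymph node.

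Fcgr2b, the inhibitory receptor for immunoglobulin G, had 68.6 and 12.03 CPM in skin. Its 57 lymph node counts all fell in library 3, at 3.87 CPM. B cells also express Fcgr2b, and the summed share of 8 B cell genes was 0.0231% of gene counts in that library, against 0.0130 and 0.00853% in the other two lymph node libraries; in skin it was 0.00219 and 0.00692%. The part of B cells in the Fcgr2b counts was not tested. Sirpa, the inhibitory receptor for CD47, had 128 and 59.4 CPM in skin and no count in lymph node, at least 1302-fold higher.

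Among receptors for growth factors and chemokines and the lineage transcription factor, 2 of 4 genes had skin counts. Csf1r, the receptor for the macrophage growth factors CSF1 and interleukin-34, was at 119.8 and 263 CPM in skin and at 0.0702, 0 and 2.92 CPM in lymph node, a ratio of mean CPM of 192. Csf2ra, the ligand-binding chain of the receptor for granulocyte-macrophage colony-stimulating factor, was at 13.8 and 27.9 CPM in skin and at 0.421, 1.49 and 0 CPM in lymph node. Spi1, which encodes PU.1, a transcription factor that macrophages require, had no count in either skin library and 1 count in lymph node library 3. Cx3cr1, the fractalkine receptor, likewise had no skin count, against 1, 1 and 19 counts in lymph node. A count of 0 over both skin libraries allows up to 0.144 CPM.

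Adhesion molecules, costimulatory ligands and other surface proteins were mixed. Ednrb, the endothelin receptor type B, which melanocytes and endothelium also express, was at 196 and 180.2 CPM in skin with no count in lymph node, at least 2614-fold higher. In the list of melanocyte and glial genes Pmel was at 8.76 and 0 CPM in skin and at 22.2, 28.2 and 36.4 CPM in lymph node (edgeR adjusted p = 0.452). Of the 11 genes of that list 7, among them Tyr, had no count in any library. Pecam1, an adhesion gene of the endothelial list, was at 55.6 and 2.88 CPM in skin and at 370.3, 499 and 351 CPM in lymph node (adjusted p = 0.110). Emcn, another endothelial gene, went the other way, with 138 counts in skin library 1 and none in the other 4 libraries. The 12 genes of that list summed to 0.00683 and 0.000287% of gene counts in skin and to 0.0370, 0.0523 and 0.0356% in lymph node. In CPM the lymph node sums were 370.3, 504 and 353, nearly all of it Pecam1. Of the 12 genes 6, among them Cdh5 and Vwf, had no count in any library. The part of melanocytes or endothelium in the Ednrb counts was not tested.

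Itgam (CD11b), an integrin of myeloid cells, was at 109 CPM in skin library 1, with no count in skin library 2, and at 10.04, 1.02 and 4.62 CPM in lymph node, so that the groups overlapped. Itgax (CD11c), the integrin used to mark dendritic cells, which lies 11055 bases from Itgam on chromosome 7, had no count in any library. Ms4a7, a tetraspan membrane protein of macrophages, was at 5.41 and 7.46 CPM in skin and at 0, 1.25 and 0 CPM in lymph node. Cd86, a costimulatory ligand that activated lymphocytes also carry, was at 34.8 and 94.96 CPM in skin and at 196, 168 and 148 CPM in lymph node, the reverse of the other abundant members. Emr1, the row of Adgre1, had 223 and 20.6 CPM in skin, against a single count in lymph node library 2, a ratio of 5220 (exact 95% counting interval 936 to 206276).

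The 3 chains of complement C1q, the recognition molecule of the classical pathway, lie side by side on chromosome 4, from 136880129 to 136898803. C1qb had 218 and 558 CPM in skin and 0, 0 and 1.83 CPM in lymph node, a ratio of mean CPM of 635. C1qc had 63.8 and 90.9 CPM in skin and 1.82, 1.25 and 0 CPM in lymph node. C1qa had 10.1 and 62.7 CPM in skin and 1.61, 1.10 and 0 CPM in lymph node. For all 3 the skin values exceeded the lymph node values. The proportion of the chains was not the same in the skin libraries: there were 21.7 C1qb counts for each C1qa count in skin library 1 and 8.90 in skin library 2.

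Chemokines and other secreted factors had both skin libraries above all lymph node libraries in 6 of 7 genes. Pf4 (CXCL4), a chemokine of platelets and of resident macrophages, was at 99.7 and 199.7 CPM in skin with no count in lymph node, at least 2083-fold higher. Ccl6 and Ccl9, neighbouring CC chemokine genes on chromosome 11 separated by 9245 bases, had 33.8 and 44.0 CPM and 0 and 153 CPM in skin, again with no lymph node count. Wfdc17, a small secreted protein with a whey acidic protein domain encoded 110903 bases further on, had 43.6 and 128 CPM in skin and no count in lymph node.

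Gas6, a ligand that bridges dying cells to phagocyte receptors, had 2 and 813 counts in the skin libraries and none in lymph node. Apoe, the lipid-carrying apolipoprotein E, was at 76.6 and 99.5 CPM in skin and at 0.561, 1.02 and 1.76 CPM in lymph node, a ratio of mean CPM of 79.0. F13a1, the catalytic chain of coagulation factor XIII, was at 338 and 447 CPM in skin and at 19.5, 23.3 and 18.6 CPM in lymph node, a ratio of 19.2. F13a1 held 9.65% of the members' counts in skin and 9.28% in lymph node.

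The last block held lysosomal, granule and cytosolic proteins. Lyz2, the lysozyme of myeloid cells, was at 376 and 445 CPM in skin and at 11.0, 4.93 and 9.84 CPM in lymph node, a ratio of mean CPM of 47.7. Cd68, a lysosomal glycoprotein, was at 79.5 and 100.4 CPM in skin and at 1.05, 4.46 and 7.67 CPM in lymph node, a ratio of 20.5. Cbr2, a carbonyl reductase, had 37.7 and 150.3 CPM in skin and no count in lymph node, at least 1308-fold higher.

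Levels were compared between genes per kilobase of exon. In skin, C1qb was highest at 357 CPM per kilobase, followed by Lyz2 at 312, Pf4 at 208, Fcer1g at 174, Wfdc17 at 161 and Tyrobp at 158. Mrc1, with the fourth most counts among the members, had 39.01 CPM per kilobase because of its exon length of 6371 bases, and Ms4a7 was lowest of the 35 members with at least 10 skin counts, at 1.44 CPM per kilobase. The order within the leading 6 rests on mean values of 2 libraries; Lyz2 lay above C1qb in skin library 1, and the opposite order in the mean was set by skin library 2.

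How the members differed between the 2 skin libraries was not used to choose them. Of the 31 members with counts in both, 26 were higher in skin library 2 and 5 in skin library 1 (Mrc1, Cd36, Sirpa, Fcgr2b and Ednrb). The median log2 ratio of skin library 2 over skin library 1 was 1.0. Among all 6807 genes at 6.43 to 410.4 CPM, the range of the members, 50.5% were higher in skin library 2, against 83.9% of the members. The exact 95% counting interval of the ratio excluded 1 for 30 of the 31, Ms4a7 being the exception. With 1 library on each side there is no test of this difference, and the intervals cover counting error only.

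Single members ranged far around that median. Gas6 had the largest ratio, 434-fold higher in skin library 2 (interval 119.7 to 3588). Ednrb, Lyz2, Cd68, Clec10a, Ccl6, Apoe, F13a1, Cd36 and Ms4a7 differed by at most 1.38-fold between the skin libraries. Tyrobp was 7.5-fold, C1qa 6.23-fold, Cd163 6.17-fold and Folr2 36.1-fold higher in skin library 2. Fcgr2b, in contrast, was 5.70-fold, Mrc1 2.63-fold and Sirpa 2.15-fold higher in skin library 1, and Emr1 was 10.8-fold higher there. As a result the ratio of Mrc1 to Cd163 counts was 14.2 in skin library 1 and 0.876 in skin library 2.

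Some members were seen in only 1 skin library: Itgam and Cd14 had counts only in skin library 1, Ccl9 and Cd209f only in skin library 2. Against the limit of 3 counts in the other library, Itgam was at least 365-fold and Cd14 at least 73.1-fold higher in skin library 1. Ccl9 was at least 547-fold and Cd209f at least 153-fold higher in skin library 2. Such gaps were not particular to these genes. Of all 6349 genes at 20 CPM or more in skin library 1, 9.48% had no count in skin library 2, and 6.49% of the 5853 genes at that level in skin library 2 had none in skin library 1; for the members the shares were 2 of 28 and 2 of 31. Between pairs of lymph node libraries this share was at most 0.0460%. Likewise, 54.8% of genes with counts in both skin libraries differed by more than 2-fold, against 20.6 to 22.4% for pairs of lymph node libraries, and 61.3% of the members did so. The values of single members in skin are therefore given per library throughout.

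**Figure D2:**
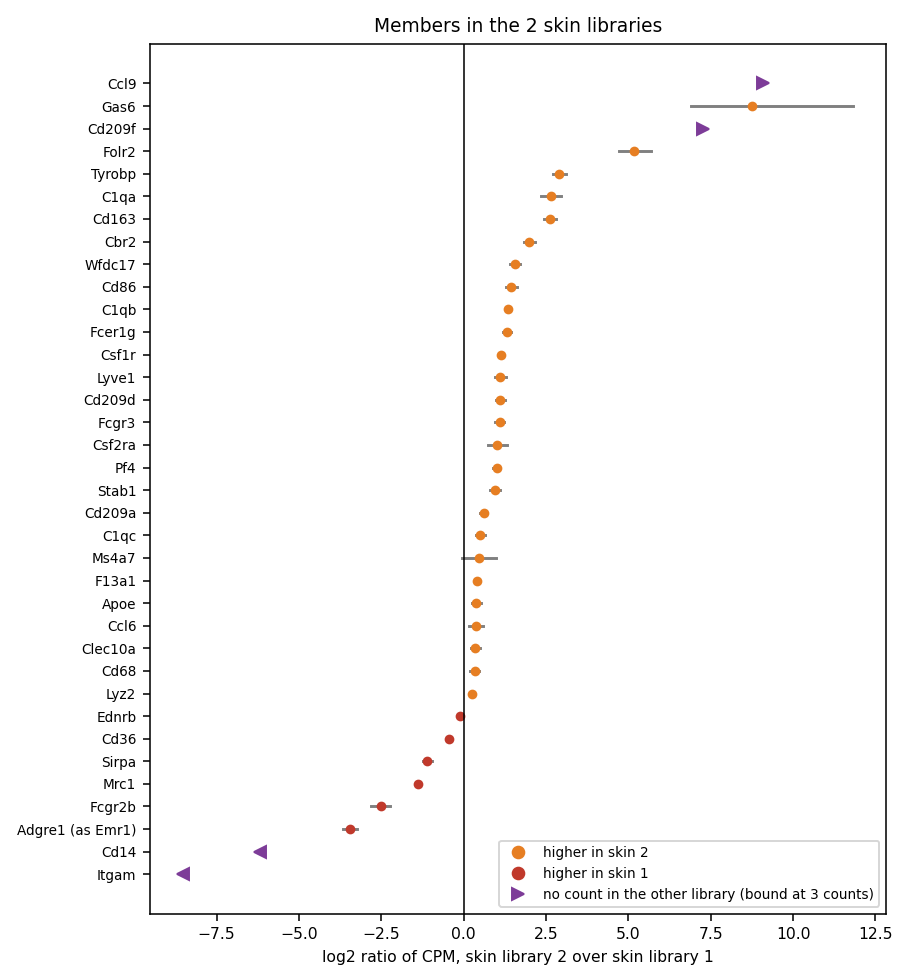
Log2 ratio of CPM in skin library 2 over skin library 1 for listed genes with at least 10 skin counts, with exact 95% counting intervals as grey bars; arrows mark genes with no count in the other library, drawn at the bound against 3 counts. Most members lie right of 0, with a median of 1.0 over the 31 members seen in both libraries.

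Myeloid genes outside the members were counted from 8 lists written from textbook knowledge, with the members taken out. Of 177 such genes, 101 passed the filter, and edgeR's quasi-likelihood test called 20 higher and 3 lower in skin, where the background over all genes tested was 2.4% higher and 5.3% lower. The median log2 fold change was 2.79, against -0.21 over all genes tested. Of the 20 higher genes, 6 had 3 or fewer counts in lymph node and passed the filter only through skin. Their calls are not read as tests, and no p-value is given for genes that passed only through skin. The counts per list below, by any of the methods, can hold genes that passed the filter through 1 group only. For such genes the direction was set by the filter, and their part in the counts is not read as a test. Of the others, 11 had a mean of at least 20 CPM in the lymph node Tregs, among them Maf, Itgae, Id2, Nr4a1, S100a4 and Ccr2. The list a gene stands in does not give the cell its counts came from, and the part of Tregs in these calls was not tested. These calls need all 3 lymph node libraries: without any 1 of them edgeR called 0 genes over the whole table (unadjusted p under 0.05 for 2361 to 2485). If skin library 1 was left out, the pooled lists had 66 higher and 17 lower, and if skin library 2 was left out they had 56 and 9; with 1 skin library the spread comes from the lymph node libraries alone, and the lone library is assumed to vary like them. The SD of log2 ratios over genes was 3.08 between the skin libraries and at most 1.15 between lymph node libraries.

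In the list of other macrophage genes 5 of 37 tested were higher and 0 lower (21 and 0 at an unadjusted p under 0.05; 21 and 1 by DESeq2; 17 and 1 by limma-voom). Of the 5, 3 had 3 or fewer lymph node counts. The genes at an unadjusted p under 0.05 also include ones that passed the filter only through skin, so these counts are not read as a test of the list. Cd300a, an inhibitory receptor of myeloid cells, had 36.7 and 83.2 CPM in skin and no count in lymph node, at least 835-fold higher. Mpeg1, a pore-forming protein of macrophages, had 44.9 and 20.8 CPM in skin and no count in lymph node, at least 457-fold higher. Il1b, the inflammatory cytokine interleukin-1 beta, had 33.5 and 19.2 CPM in skin and 1 lymph node count. Maf, a transcription factor of macrophages and of effector T cells, was at 450.2 and 337 CPM in skin and at 112, 65.6 and 104 CPM in lymph node (log2 fold change 2.07, SE 0.33, adjusted p = 0.0440). Sepp1, a selenium carrier protein chosen after its values were seen, completed the 5.

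In the list of other dendritic cell genes 5 of 21 tested were higher and 1 lower (7 and 3 at an unadjusted p under 0.05; 7 and 2 by DESeq2; 6 and 3 by limma-voom). Of its 32 genes, 9 had no skin count, and 11 of the 21 tested had a positive log2 fold change. Batf3, Clec9a and Ccl17, genes of dendritic cell subsets, had no count in any library, and Zbtb46, a dendritic cell transcription factor, had 1 count in skin and 1 in lymph node. Ccr7, the receptor that guides dendritic cells and T cells to lymph nodes, was at 11.2 and 0 CPM in skin and at 726, 604 and 832 CPM in lymph node (adjusted p = 0.0679). These 5 were chosen after their values were seen. Other genes of the list went the other way. Xcr1 was at 50.8 and 10.6 CPM in skin and at 2.25, 0 and 0 CPM in lymph node. Flt3 was at 3.82 and 52.3 CPM in skin, with 2 counts in lymph node. Epcam was at 29.3 and 82.5 CPM in skin and at 10.4, 6.81 and 2.65 CPM in lymph node. Kmo had 836 skin counts, all in skin library 1, and 16 in lymph node. These genes were likewise chosen after their values were seen. Mgl2, a lectin of dermal dendritic cells and the close relative of Clec10a, had 226 and 448 CPM in skin and 3 counts in lymph node, a ratio of 4636 (exact 95% counting interval 1586 to 22486). Cd209e, another gene of the Cd209 row, had 24.0 and 104 CPM in skin and 1 count in lymph node. Itgae (CD103) was higher by 3.36 on the log2 scale (adjusted p = 0.0271) and Id2, a transcriptional regulator, by 3.34 (adjusted p = 0.0381); both were at 50 CPM or more in every lymph node library. Cst3 was the fifth higher gene and Cd8a, with 596 counts in lymph node and none in skin, the one lower gene; both were chosen after their values were seen.

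Class II presentation genes, which macrophages, dendritic cells and B cells use to show peptides to CD4 T cells, were called higher in 4 of 10 tested and lower in 0 (6 and 2 at an unadjusted p under 0.05; 6 and 2 by DESeq2; 6 and 1 by limma-voom). Cd74, the invariant chain, had 3657 and 5664 CPM in skin and 215, 193 and 518 CPM in lymph node (log2 fold change 3.92, SE 0.52, adjusted p = 0.0381). The log2 fold change was 5.91 for H2-Eb1 (adjusted p = 0.0433), 6.42 for H2-Ab1 (adjusted p = 0.0452) and 5.34 for H2-Aa (adjusted p = 0.0496). The 11 genes of this list summed to 0.688 and 0.873% of gene counts in skin and to 0.0422, 0.0437 and 0.0862% in lymph node.

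Of 9 monocyte genes tested, 3 were higher and 2 lower. Ccr2, the chemokine receptor of inflammatory monocytes and of some T cells, was at 1149 and 542 CPM in skin and at 96.0, 75.0 and 44.7 CPM in lymph node (log2 fold change 3.56, SE 0.48, adjusted p = 0.0381). S100a4, a calcium-binding protein, rose by 3.97 (adjusted p = 0.0381) and Nr4a1, a nuclear receptor, by 2.32 (adjusted p = 0.0299), both as log2 fold changes. Ly6c2, which marks classical monocytes and some T cells, was called lower, with 1 count in skin and 594 in lymph node, and was chosen after its values were seen.

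In the complement and coagulation list C5ar1, the receptor for the anaphylatoxin C5a, was called among 6 tested, with 106 and 32.1 CPM in skin and no count in lymph node, at least 962-fold higher. Of 11 genes of Fc receptor and ITAM signalling, 2 were higher. Fcgrt, the neonatal Fc receptor, was at 20.6 and 675 CPM in skin and at 2.18, 1.801 and 1.36 CPM in lymph node (adjusted p = 0.0484). Cd47, the ligand of Sirpa, rose by a log2 fold change of 1.17 (SE 0.23, adjusted p = 0.0484). No gene passed among 5 myeloid chemokines (edgeR; 2 higher and 0 lower at an unadjusted p under 0.05, and the same counts by DESeq2 and limma-voom) or among 3 genes of the growth factor axis (1 higher and 0 lower by each). Ccl8, a chemokine of dermal macrophages, had 68.5 and 27.1 CPM in skin and 0.702, 0 and 0 CPM in lymph node, and passed the filter only through skin. So did Ccl24 and Csf2rb, which had no lymph node count. Ccl24 was chosen after its values were seen. These 3 are the genes counted as higher at an unadjusted p under 0.05 in the 2 lists, so those counts are not read as tests. Ccl5, a chemokine of T cells, had 32.3 and 26.5 CPM in skin and 40.8, 19.8 and 36.0 CPM in lymph node (adjusted p = 0.931).

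The growth factor axis list also gave Csf2rb, the shared beta chain of the receptor that holds Csf2ra, at 96.2 and 3.58 CPM in skin and without a count in lymph node. Flt3l, a growth factor of dendritic cells, was at 174 and 91.8 CPM in skin and at 207, 148 and 166 CPM in lymph node (adjusted p = 0.582).

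The other myeloid lists differed in which skin library was higher. In the list of other macrophage genes 17 of 29 with counts in both skin libraries were higher there, in the dendritic cell list 6 of 12 and in the class II list 6 of 8, with median log2 ratios of 0.28, 0.15 and 0.41. The complement and coagulation list had 4 of 5 higher in skin library 2 and a median of 2.33, larger than the members' median of 1.0 but over 5 genes only. Its summed shares were 0.0206 and 0.0698% of gene counts in skin libraries 1 and 2. Monocyte genes (4 of 7) and myeloid chemokines (2 of 4) had medians of 0.17 and 0.81. Fc receptor and ITAM genes (3 of 8) and the growth factor axis (0 of 4) leaned to skin library 1, with medians of -0.37 and -5.30. In the T cell list 11 of 14 were higher in skin library 2, with a median of 0.23. Among the members, 26 of 31 were higher there.

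**Figure D3:**
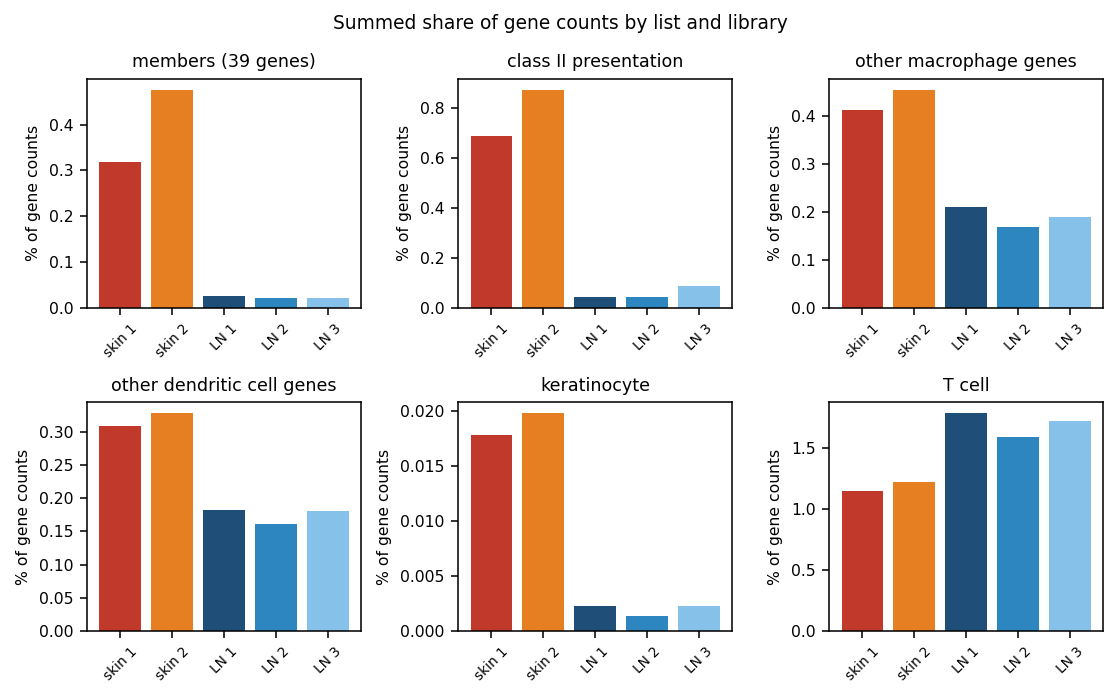
Summed percent of gene counts of 6 gene lists in each library (bars start at 0, each panel has its own axis). Members and class II genes are higher in both skin libraries, while the T cell list is at 1.15 and 1.22% in skin and 1.59 to 1.78% in lymph node.

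Lists of 8 other cell types were counted in the same way. Of 84 genes in the table, 21 passed the filter, and edgeR called 2 higher and 0 lower in skin (3 and 10 at an unadjusted p under 0.05; 4 and 9 by DESeq2; 3 and 7 by limma-voom). Krt14, a keratin of basal keratinocytes, had 68.6 and 109 CPM in skin and no count in lymph node, at least 1236-fold higher, and it too passed the filter only through skin. The 12 keratinocyte genes summed to 0.0178 and 0.0198% of gene counts in skin and to 0.00229, 0.00135 and 0.00226% in lymph node, and 3 of them had no skin count. Of the 8 tested, 4 had a positive log2 fold change. Krt5 had 14 counts in skin library 2 and none in any other library. Krt10 had 130 counts in lymph node and none in skin. Krt5 and Krt10 were chosen after their values were seen. Ltf (lactoferrin), with 317 and 633 CPM in skin and 0.0702, 0 and 2.92 CPM in lymph node, was the one called gene of the neutrophil list. Ltf likewise passed the filter only through skin, so its call is not read as a test. The other 11 neutrophil genes in the table, among them S100a8, S100a9 and Mpo, had no count in either skin library.

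In the B cell list 7 of 8 genes had no count in skin; Cd79b was at 22.0 and 72.0 CPM in skin and at 119, 61.6 and 120.3 CPM in lymph node (adjusted p = 0.359), and Ms4a1 was at 0 and 0 CPM in skin against 4.49, 8.77 and 38.8 CPM in lymph node. Mast cell, endothelial, melanocyte and fibroblast genes, like those of B cells, gave no edgeR call; none were higher, and 2, 1, 1, 1 and 3 were lower, at an unadjusted p under 0.05 (DESeq2 the same, but for 1 higher fibroblast gene; limma-voom 2, 0, 0, 1 and 3 lower). Kit was at 12.8 and 0 CPM in skin and at 7.58, 21.7 and 7.87 CPM in lymph node (adjusted p = 0.821), and Hdc had no skin count, against 3.86, 1.49 and 5.63 CPM. Sparc, which passed the filter only through skin, was at 84.2 and 8.05 CPM in skin, against 0.0702, 3.29 and 0.0679 CPM in lymph node. Dpt was at 0.186 and 0.298 CPM in skin, against 4.77, 10.1 and 5.29 CPM in lymph node (adjusted p = 0.0627). Of the eosinophil genes Ear2 had 1 and 24 counts in skin and Il5ra 6 counts in lymph node library 2; neither passed the filter.

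Of the 14 T cell genes, Ctla4, an inhibitory receptor of Tregs, rose by a log2 fold change of 1.74 (SE 0.19, adjusted p = 0.0271), with 2571 and 2189 CPM in skin and 821, 676 and 644 CPM in lymph node. Cd5, a receptor that dampens T cell receptor signals, fell by 1.32 (adjusted p = 0.0381) and Lck, a kinase of that pathway, fell by 0.87 (adjusted p = 0.0492), both on the log2 scale. The other 11 were not called. All 14 had counts in every skin library, which was not so for the members Itgam, Cd14, Ccl9 and Cd209f.

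**Figure D4:**
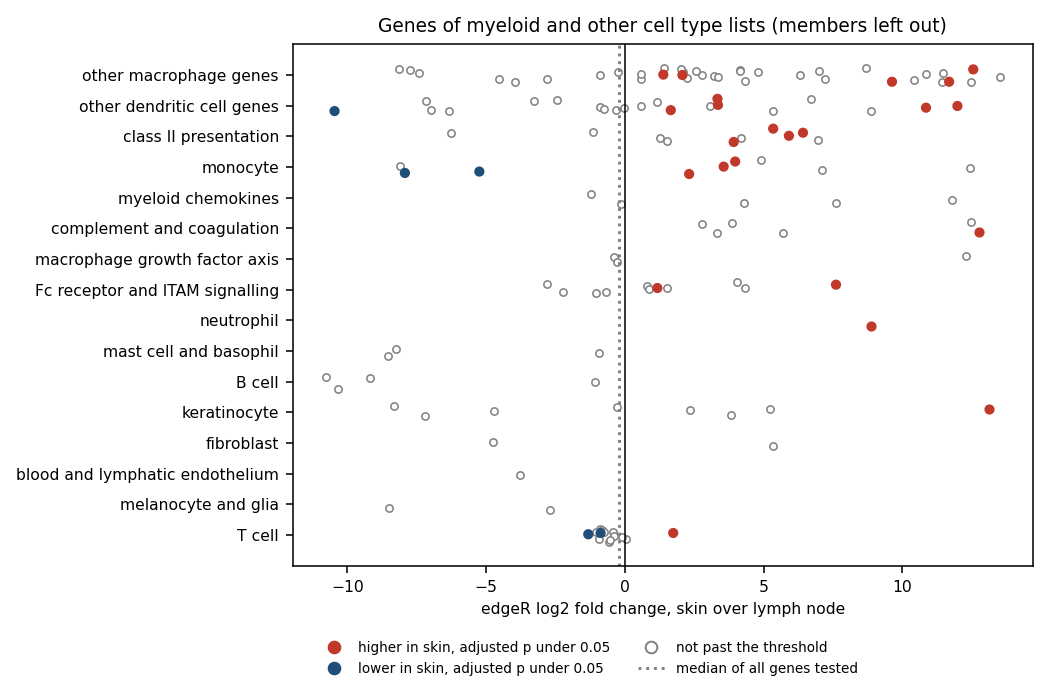
edgeR log2 fold change, skin over lymph node, of every tested gene of the 16 lists, members left out; filled points passed an adjusted p of 0.05 and the dotted line is the median of all genes tested, -0.21. Among myeloid lists 20 filled points lie to the right and 3 to the left.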

How the data were processed

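Counts came from 1 deposited table of 24084 genes and 5 summary rows, 1 column per library, with its header read as shifted by 1 cell. Tools that the authors list, per the submitters' processing notes, are HTSeq 0.6.1, TopHat2 2.0.12, SAMtools 0.1.19.0, CASAVA 1.8.2 and Bowtie2 2.1.0.0, with build mm10; the sources used here give no options and no strand setting. The summary rows were left out; reads aligning to several places were 64.5 to 72.0% of all counts, reads outside genes 8.35 to 14.0%. Per the labels' protocols, cDNA came from a SMARTer ultra-low-input kit, so PCR copies are not independent molecules and intervals and bounds cover counting error only.

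Skin was compared with lymph node in edgeR 4.0.16 (R 4.3.3) by the quasi-likelihood test with TMM scaling, filterByExpr (minimum count 10) and Benjamini-Hochberg adjustment over 11437 genes; SE is the absolute log2 fold change over root F. CPM use gene counts times TMM factors. Ratios of 2 libraries or of groups with 1 to 3 counts have exact 95% Poisson intervals. Alternatives were other filters and scalings, DESeq2 1.42.0, limma-voom 3.58.1, each library left out and a replicate block. Functions were tested on simulated data.

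The members and lists were chosen with earlier results of these data known. From each list the text names up to 4 called genes by adjusted p, or else the 2 most abundant (some are not reported here), and Foxp3, Cd3e and Cd4; other genes are said to be chosen after their values were seen, as were S100a8, S100a9 and Mpo. Positions and exon lengths come from GENCODE M21, upstream sequence from RefSeq. Nothing in the labels says whether replicate numbers pair the libraries, so the main test did not pair them.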

Additional observations from a re-analysis of the deposited data

How the results depend on the processing

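Main counts were 275 genes higher and 606 lower in skin over the whole table, 20 and 3 in the myeloid lists, 2 and 0 in the lists of other cell types, and 18 and 0 among the members. Without a filter they were 136 and 179, 12 and 1, and 1 higher in the other lists; with a minimum count of 50 they were 419 and 972, with 2 lower in the other lists. DESeq2 gave 1235 and 2027, 50 and 10, and 4 and 9; limma-voom gave 566 and 1665, 42 and 8, and 7 lower in the other lists. Without scaling factors and with upper-quartile scaling 1 gene was higher in the other lists, and upper-quartile scaling moved the median log2 fold change of all genes from -0.21 to -0.37.

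The replicate block treated libraries with the same number as paired, which the labels do not state (deviations correlated at -0.03 and -0.02 in the 2 numbered pairs). The block gave 11 and 10 over the table, 5 and 1 in the myeloid lists, 1 higher in the other lists and 1 higher among the members. Leaving out 1 library at a time gave 0 to 2110 higher and 0 to 3955 lower over the table, 0 to 66 and 0 to 17 in the myeloid lists, 0 to 7 and 0 to 10 in the other lists, and 0 to 30 and 0 to 1 among the members; all zeros came from leaving out a lymph node library, for a cause not tested. Fits with 1 skin library take their spread from lymph node alone. Counts among the members describe and do not test.

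The ratio of the members' summed levels was 17.9, ran from 14.3 to 21.4 with 1 library left out, and was 25.4 per T cell count, since the T cell list was itself lower in skin. In all of these ratios Cd86 held most of the lymph node counts. Itgam, at a log2 fold change of 3.38, was reversed by limma-voom (-0.69), by the replicate block (-0.25) and without skin library 1 (-9.08), the only skin library with Itgam counts; it was 4.37 without skin library 2. The median log2 ratio between the skin libraries stayed between 0.86 and 1.0 under the 3 alternatives tried for it.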
